A study of Mus musculus with 3 samples.

Results

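Lipogenesis and lipid droplet genes were followed in single-nucleus RNA sequencing of frozen mouse liver. The 37 genes were taken as a named list and looked up by symbol, and all 37 were present among the 32285 genes of the count matrices. They fall into 7 roles. These are transcription factors that drive lipogenesis, genes of fatty acid synthesis, elongases and desaturases, and enzymes of triglyceride assembly. The others are proteins of the droplet coat and of droplet fusion, droplet lipases, and fatty acid binding and export. Their unique molecular identifiers (UMIs, one per captured RNA molecule) were summed over nuclei of each class and library, and levels are given as CPM, the UMIs of a gene per 1000000 UMIs of the same nuclei.

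The 3 libraries each came from the liver of 1 male C57BL/6J mouse. One mouse was labelled ND, which is the normal diet control, and its liver was labelled normal. The other 2 were labelled STZ-HFHC, meaning that streptozocin, a toxin of the insulin-producing islet cells, had been injected in newborn mice that were later fed a high-fat, high-cholesterol diet, and their livers were labelled as MASH-related fibrosis. MASH is metabolic dysfunction-associated steatohepatitis, a fatty liver with inflammation. No library of mice given streptozocin with the normal diet was analysed here, so the toxin and the diet cannot be told apart. The mouse codes of the ND and STZ-HFHC animals also belong to different numbered series, so that series and condition cannot be told apart, and the ages of these animals were not given in the sources used here. With 1 ND mouse the spread among ND mice could not be measured, so that the calls below are calls of size.

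In hepatocytes, surplus carbohydrate is turned into fatty acids, which are elongated and desaturated, esterified to glycerol and either stored in lipid droplets or exported in very-low-density lipoprotein. SREBP-1c, encoded by Srebf1, turns on this programme in response to insulin, and ChREBP, encoded by Mlxipl, in response to sugar. The droplet surface carries perilipins, CIDE proteins that enlarge droplets by lipid transfer, and lipases that release the stored fatty acids, and an excess of droplets defines a fatty liver.

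After limits on genes and mitochondrial counts, 8494 ND, 8921 STZ-HFHC 1 and 10921 STZ-HFHC 2 nuclei were kept, with medians of 4068, 3015 and 4027 UMIs. Pairs of libraries shared 20 to 27 barcodes among the kept nuclei. Hepatocyte-like nuclei were the sum of 7 clusters and numbered 5412, 2982 and 4745, which was 63.7%, 33.4% and 43.4% of the nuclei, with 25744394, 26171820 and 34877452 UMIs. The 12 hepatocyte markers together reached 20741, 15582 and 16414 CPM in them, with no marker at 0. Hepatocyte RNA was abundant in the other classes too. The same markers stood there at a median of 0.821 to 0.928 times their hepatocyte-like level in ND. In STZ-HFHC 1 they stood at 0.542 to 0.822 times it, and in STZ-HFHC 2 at 0.619 to 0.918 times it. Whether free RNA or mixed droplets gave this was not tested. Different clusters held most hepatocyte-like nuclei in the 2 conditions. Clusters 2, 12 and 14 held 3708, 880 and 792 of the ND nuclei, while clusters 1, 3 and 15 held most of those of STZ-HFHC. Cluster 1, with 1912 and 1883 nuclei, had the T cell gene Themis and the member Cidec, but no hepatocyte marker, among its 10 leading genes. The other T or NK cell markers summed to 20.3 and 29.4 CPM there, against 15.4 CPM in ND cluster 2 and 783 to 2191 CPM in T or NK cell-like nuclei. The cholangiocyte markers summed to 129, 443 and 209 CPM in hepatocyte-like nuclei, and their part in the results was not tested. The main comparison is also given by cluster number.

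The lipogenic and droplet genes moved in both directions in STZ-HFHC hepatocyte-like nuclei. A gene was called higher or lower when it had at least 50 UMIs over the 3 libraries and was at least 2-fold above, or at least 2-fold below, the ND level in each of the STZ-HFHC mice. Of 36 genes of the list that reached the minimum, 10 were higher and 5 were lower, and 21 were not called. Over all 14827 genes tested, 8.27% were higher and 5.59% were lower, both smaller shares than those of the list. The median log2 ratio to ND was 0.16 and 0.18 for the list in the 2 mice and 0.09 and 0.10 for all genes. The genes called higher were Srebf1, Acaca, Thrsp, Elovl6, Scd2, Lpin1, Mogat1, Cidec, Pnpla3 and Fabp4, and those called lower were Elovl3, Elovl5, Fads1, Agpat2 and Cideb. These are calls of size with no test. In the edgeR quasi-likelihood test, for which the lone ND library had to be assumed to vary like the STZ-HFHC pair, only Srebf1, Lpin1 and Agpat2 passed an adjusted threshold of 0.05, which 1.60% of all genes passed. Acaca was not called when libraries were scaled by TMM or by the median of ratios, which moved the median of all genes from 0.09 and 0.10 to about 0.

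Because cluster 1 had a T cell gene among its leading genes, the comparison was repeated without it and by cluster number. Cluster 15, used below, held more of that gene than cluster 1. Without cluster 1, 7 genes were higher (6.39% of all genes) and 6 lower (5.73%), since Acaca, Cidec and Pnpla3 lost their call and Fabp1 was called lower. Acaca then missed the rule narrowly, at log2 ratios of 1.27 and just under 1.00, and Pnpla3 had 31 UMIs, under the minimum, at 2.58 and 2.91, while Cidec was at 0.38 and 0.62. Between STZ-HFHC cluster 3 and ND cluster 2, Srebf1, Acly, Thrsp, Elovl6, Scd1, Lpin1, Mogat1 and Fabp4 were higher (6.20% of all genes), and Elovl3, Elovl5, Fads1, Agpat2 and Cideb were lower (5.28%). The clusters with the most Glul, the glutamine synthetase of hepatocytes around the central vein, were STZ-HFHC cluster 15 and ND cluster 14. Between them Srebf1, Acaca, Thrsp, Elovl6, Scd1 and Lpin1 were higher (4.13% of all genes) and Elovl3, Agpat2, Plin5, Cideb and Pnpla2 were lower (3.58%). Srebf1, Thrsp, Elovl6 and Lpin1 were thus higher, and Elovl3, Agpat2 and Cideb lower, in the class as a whole and in each of these comparisons.

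**Figure D1:**
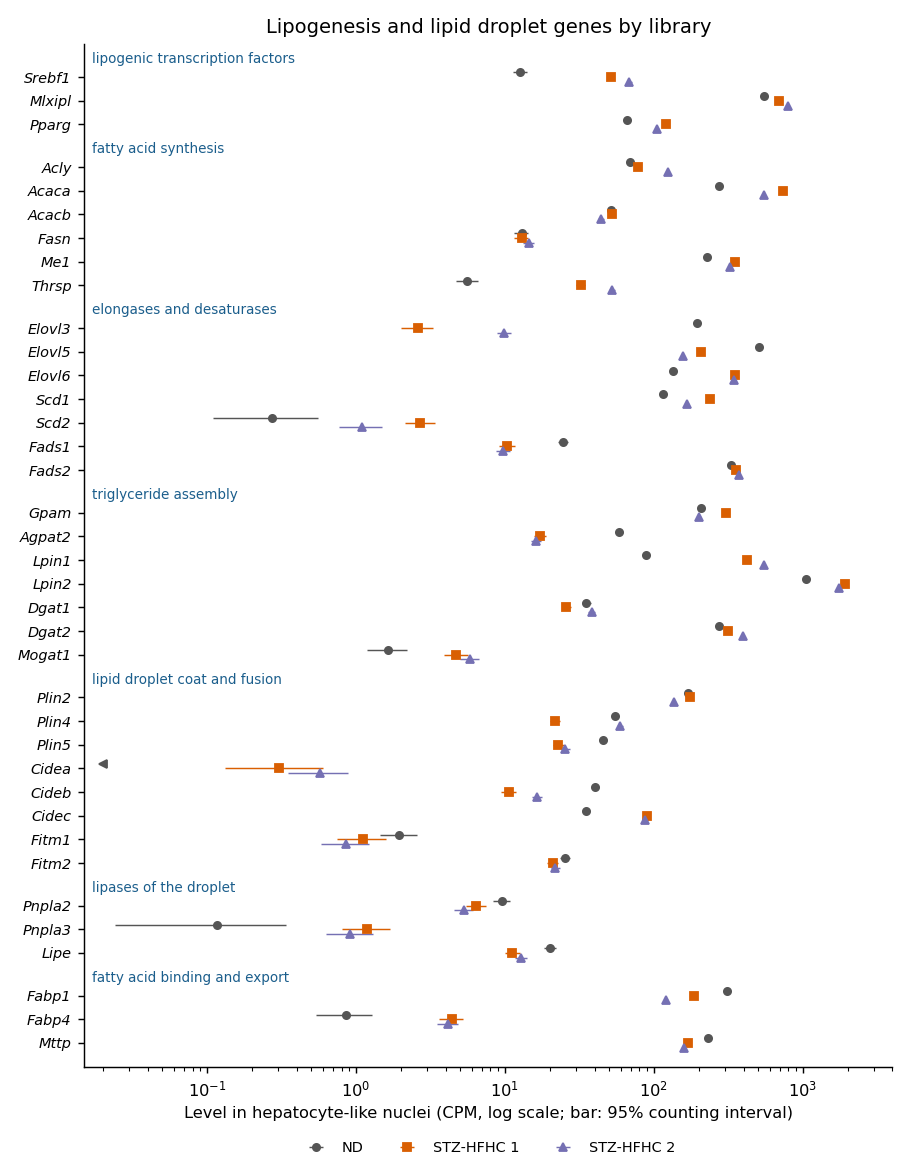
Level in hepatocyte-like nuclei of each lipogenesis and lipid droplet gene, in CPM on a log axis, grouped by role, with 1 point per library and exact Poisson 95% intervals as bars, which cover counting error only, and an arrowhead at the left edge for 0 UMIs. Elovl3 shows the widest gap, from 194 CPM in ND to 2.60 and 9.92 CPM in STZ-HFHC, while Fasn points lie together at 13.0, 13.0 and 14.5 CPM.

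The first of the transcription factors, Srebf1, was at 12.6 CPM in ND and at 51.5 and 68.4 CPM in the first and second STZ-HFHC mouse. Both STZ-HFHC libraries lay above ND, by 4.08-fold and 5.42-fold. Mlxipl stood at 551, 689 and 794 CPM, with log2 ratios of 0.32 and 0.53 and no call. Pparg, a nuclear receptor of adipocyte differentiation that is low in normal hepatocytes, was at 66.2, 119.9 and 105 CPM. Its ratios of 1.81 and 1.59 also stayed under the 2-fold rule. All 3 factors were above ND in both mice, as were 19 of the 36 tested genes of the whole list. Macrophage-like nuclei held more Pparg than hepatocyte-like nuclei, as given below, but the macrophage markers summed to 387 CPM in ND and to 285 and 325 CPM in STZ-HFHC hepatocyte-like nuclei, so that they did not move with it.

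To give the sequence context of the higher calls, the RefSeq windows of GRCm38.p6 from 250 bases before to 50 bases after the start are printed for the 4 genes with the largest smaller ratio among those with a window. Capitals mark a CCAAT box (CCAAT, or ATTGG on the other strand), the element bound by NF-Y. The windows are those of Pnpla3 at chr15:84167566-84167865 on the plus strand, Thrsp at chr7:97417501-97417800 on the minus strand, Lpin1 at chr12:16610917-16611216 on the minus strand, and Srebf1 at chr11:60222532-60222831 on the minus strand, where the Srebf1 window is the most upstream of 3.
Pnpla3: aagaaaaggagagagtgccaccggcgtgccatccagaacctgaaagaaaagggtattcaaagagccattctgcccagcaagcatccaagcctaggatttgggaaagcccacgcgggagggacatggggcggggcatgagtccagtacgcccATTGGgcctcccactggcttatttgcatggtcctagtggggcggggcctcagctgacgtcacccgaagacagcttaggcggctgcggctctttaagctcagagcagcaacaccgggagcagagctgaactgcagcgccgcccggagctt
Thrsp: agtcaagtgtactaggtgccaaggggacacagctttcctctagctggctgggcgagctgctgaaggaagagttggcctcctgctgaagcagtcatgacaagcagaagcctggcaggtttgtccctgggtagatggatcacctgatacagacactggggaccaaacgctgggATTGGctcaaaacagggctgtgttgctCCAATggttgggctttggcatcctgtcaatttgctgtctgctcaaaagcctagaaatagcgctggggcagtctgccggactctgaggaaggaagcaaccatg
Lpin1: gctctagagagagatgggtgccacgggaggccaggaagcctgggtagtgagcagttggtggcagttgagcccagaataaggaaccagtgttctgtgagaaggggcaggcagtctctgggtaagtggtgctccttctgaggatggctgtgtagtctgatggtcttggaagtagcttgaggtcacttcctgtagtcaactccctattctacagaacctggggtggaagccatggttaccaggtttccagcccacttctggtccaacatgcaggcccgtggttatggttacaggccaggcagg
Srebf1: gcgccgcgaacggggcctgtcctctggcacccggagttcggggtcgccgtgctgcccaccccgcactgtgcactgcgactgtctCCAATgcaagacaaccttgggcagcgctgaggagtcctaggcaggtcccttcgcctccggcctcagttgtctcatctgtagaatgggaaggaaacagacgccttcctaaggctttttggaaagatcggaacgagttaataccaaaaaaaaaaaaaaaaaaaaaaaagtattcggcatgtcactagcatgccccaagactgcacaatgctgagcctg
Thrsp held 2 CCAAT boxes, Pnpla3 and Srebf1 1 each and Lpin1 0. Which of the 3 Srebf1 windows serves the SREBP-1c transcript was not examined. Windows were found for 29 of the 37 genes. A CCAAT box was present in 18 of their 41 windows (43.9%), against 37.4% of all 32851 windows. The sterol regulatory element searched as TCACNCCAC was found in 1 window, that of Mlxipl, which is 2.44% against 1.24% of all windows. The palindromic E-box CACGTG was found in 5 windows (12.2% against 7.15%), those of Mlxipl, Elovl5, Lpin2, Plin2 and Lipe. No window held the DR1 or DR4 repeats of nuclear receptors in the exact form searched, which 0.0396% and 0.0152% of all windows held. Both strands were read in each search.

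Among the genes of fatty acid synthesis, 2 of 6 were higher and none was lower. Thrsp, a nuclear protein that promotes lipogenic gene activity, had the greater change, from 5.59 CPM in ND to 32.2 and 52.6 CPM. Acaca, the acetyl-CoA carboxylase that makes malonyl-CoA for synthesis, was at 272 CPM in ND and at 736 and 552 CPM in STZ-HFHC. Its log2 ratios were 1.43 and 1.02, the latter just inside the rule. Fasn, the synthase that builds palmitate from malonyl-CoA, stood at 13.0 CPM in ND and at 13.0 and 14.5 CPM in STZ-HFHC, log2 ratios of 0.00 and 0.16. Its level thus lay within 0.16 log2 units of ND in nuclei in which Srebf1 was at least 4.08-fold higher. Acly, which supplies cytosolic acetyl-CoA, was at 69.1, 78.7 and 124 CPM, and Me1, a source of NADPH, at 228, 351 and 327 CPM. Acacb, the carboxylase whose product restrains fatty acid oxidation, was at 51.9, 52.4 and 44.4 CPM. None of these last 3 enzymes was called.

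The elongases and desaturases divided, with 2 of 7 higher and 3 lower. Elovl6, which elongates palmitate, was at 135 CPM in ND and at 348 and 346 CPM in STZ-HFHC, a log2 ratio of 1.37 and 1.36. Elovl3, an elongase of saturated and monounsaturated very-long chains, was at 194 CPM in ND and at 2.60 and 9.92 CPM, log2 ratios of -6.21 and -4.29. Elovl5, an elongase of polyunsaturated chains, was at 508 CPM in ND and at 208 and 156 CPM. These elongases thus went opposite ways in both STZ-HFHC mice, with Elovl6 above ND and Elovl3 and Elovl5 below it. Fads1, the delta-5 desaturase, was lower at 10.4 and 9.66 CPM against 24.5 CPM, while Fads2, the delta-6 desaturase encoded beside it on chromosome 19, was at 328, 358 and 374 CPM and was not called. Scd2, a stearoyl-CoA desaturase, was at 0.272 CPM (7 UMIs) in ND and 2.71 and 1.09 CPM (71 and 38 UMIs) in STZ-HFHC. Its ratios of 9.98 and 4.01 had counting intervals of 4.60 to 25.7 and 1.77 to 10.6. Endothelial-, macrophage- and stellate-like nuclei all held more of it, and the part of their RNA in the hepatocyte-like value was not tested.

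Scd1, the main hepatic stearoyl-CoA desaturase, was at 116 CPM in ND and 237 and 168 CPM in STZ-HFHC, and it missed the rule with log2 ratios of 1.03 and 0.53. The ND value turned on 1 cluster. In ND cluster 12, whose leading genes included mitochondrial and major urinary protein genes, Scd1 was at 511 CPM, while it was at 46.0 CPM in cluster 2 and 40.7 CPM in cluster 14. Without cluster 12 the log2 ratios were 2.39 and 1.89 and Scd1 was called higher. Acaca, at 1.41 and 0.99, was no longer called (8.61% of all genes were then higher and 4.85% lower). Cluster 8, also led by mitochondrial genes and with Scd1 among its 10 leading genes, was left unnamed and out of the class. It held 13 ND and 966 and 573 STZ-HFHC nuclei. With cluster 8 added to the class, Scd1 was still not called. Cluster 12 also held more Fabp1 (704 against 233 CPM in cluster 2) and Fads1 (44.5 against 21.6 CPM). Those 3 genes were the members that passed 2-fold in cluster 12 among 31 with enough UMIs, and 0 passed in the other direction. Of 11647 genes tested between the 2 ND clusters, 4.37% were at least 2-fold higher in cluster 12 and 0.395% in cluster 2.

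In triglyceride assembly, 2 of 7 genes were higher and 1 was lower. Lpin1, a phosphatidate phosphatase that makes diacylglycerol and also acts as a transcriptional coactivator, was at 89.2 CPM in ND and at 422 and 548 CPM in STZ-HFHC, log2 ratios of 2.24 and 2.62. Mogat1, a monoacylglycerol acyltransferase, was at 1.63, 4.70 and 5.79 CPM and was higher by log2 ratios of 1.52 and 1.81. Agpat2, which makes phosphatidate one step before the lipins, was at 58.8 CPM in ND and 17.3 and 16.2 CPM in STZ-HFHC, log2 ratios of -1.76 and -1.86. Agpat2 and Lpin1 therefore went opposite ways, but other genes of the Agpat family were not lower. Agpat1 had log2 ratios of 0.85 and 0.6, Agpat3 of 0.15 and -0.04, and Agpat5 of 0.8 and 0.77, with no call. Lpin2 was at 1043, 1929 and 1742 CPM, log2 ratios of 0.89 and 0.74, and was not called. Gpam, which takes the first acylation step, was at 208, 307 and 202 CPM. Dgat1 and Dgat2, which add the last acyl chain, were at 35.2, 25.9 and 38.2 CPM and at 275, 317 and 398 CPM, so that neither moved by 2-fold.

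**Figure D2:**
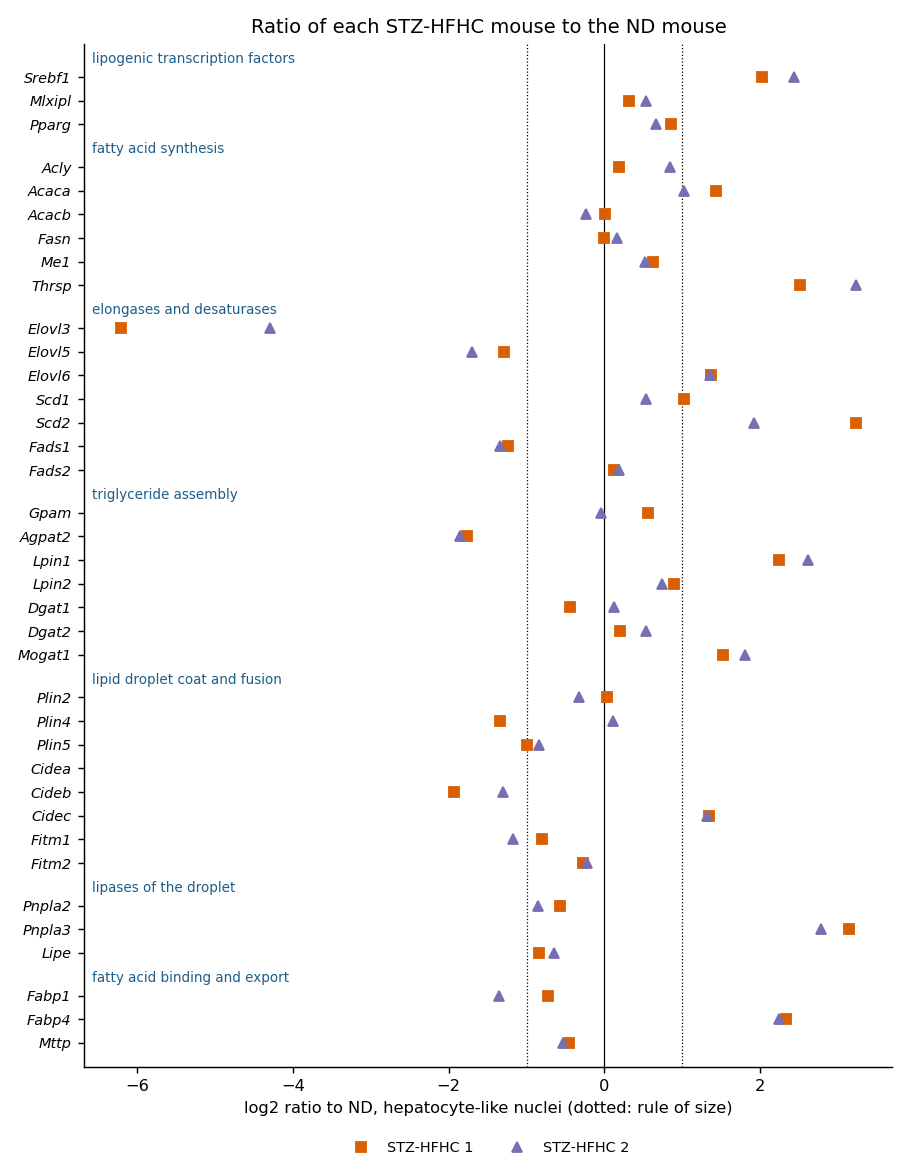
Log2 ratio of each STZ-HFHC library to ND in hepatocyte-like nuclei for each gene, ordered by role, with 1 point per library and lines at the 2-fold rule. Points of both mice lie beyond the line on the right for 10 called genes and on the left for 5, and Plin4 has 1 mouse at -1.34 and the other at 0.11.

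The droplet coat and fusion genes gave 1 higher and 1 lower call among the 7 that reached the minimum. Cidec, a CIDE protein that enlarges droplets and is also called FSP27, was at 35.1 CPM in ND and at 89.6 and 87.7 CPM in STZ-HFHC. Cideb, the CIDE protein of hepatocytes that also serves lipoprotein loading, was at 40.3 CPM in ND and at 10.6 and 16.4 CPM. The 2 CIDE genes thus went opposite ways in both STZ-HFHC mice, with log2 ratios of 1.35 and 1.32 for Cidec and of -1.93 and -1.30 for Cideb. Cidea, the remaining CIDE gene, had 0 UMIs in ND and 8 and 20 in STZ-HFHC, under the minimum. Its STZ-HFHC levels were 2.62 and 4.92 times the 0.117 CPM that 3 UMIs in ND would give. The exact counting intervals of its ratios to ND began lower, at 1.68 and 3.64.

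Plin2, the perilipin that coats most hepatocyte droplets, was at 169.9 CPM in ND and at 174 and 136 CPM in STZ-HFHC, so that it did not differ by 2-fold. Plin5, which ties droplets to mitochondria, was at 45.6, 22.9 and 25.5 CPM, log2 ratios of -0.99 and -0.84, the former just outside the rule. Plin4 differed between the mice, at 55.0 CPM in ND, 21.8 CPM in the first and 59.4 CPM in the second. Fitm2, which helps droplets bud from the endoplasmic reticulum, was at 25.3, 20.9 and 21.8 CPM, and Fitm1 at 1.94, 1.11 and 0.860 CPM. The perilipins and FIT genes therefore gave no call. Of the 8 adipocyte markers, Lep and Ucp1 had 0 UMIs in hepatocyte-like nuclei. Adipoq, Plin1, Cfd and Tshr had at most 7 UMIs in a library, and Adrb3 was at 28.7, 19.7 and 39.4 CPM. The list summed to 2541 CPM in ND and 1579 and 1575 CPM in STZ-HFHC, most of it from Pck1, which hepatocytes also make. The sum therefore cannot show whether adipocyte markers moved with these genes.

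Of the lipases, Pnpla3 alone was called. It is a lipase-like protein of the droplet surface, and its call rested on few counts, with 3 UMIs in ND and 31 and 32 UMIs in STZ-HFHC, or 0.117, 1.18 and 0.917 CPM. The ratios to ND were 10.2 (counting interval 3.17 to 52.0) and 7.87 (2.46 to 40.2). Pnpla2, the main triglyceride lipase, was at 9.52, 6.42 and 5.28 CPM, and Lipe, the hormone-sensitive lipase, at 20.1, 11.2 and 12.8 CPM. Both were below ND in each mouse without passing 2-fold in both.

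Of the binding and export genes, Fabp4, the fatty acid binding protein of adipocytes, macrophages and capillaries, was higher at 4.39 and 4.13 CPM against 0.855 CPM. Its level in endothelial-like nuclei was higher still and also differed between conditions, at 4.85 CPM in ND and 66.8 and 46.7 CPM in STZ-HFHC, and the part of endothelial RNA in the hepatocyte-like value was not tested. The endothelial markers summed to 402, 409.8 and 426 CPM in hepatocyte-like nuclei. Fabp1, the fatty acid binding protein of liver, was at 308, 186 and 120.4 CPM, log2 ratios of -0.72 and -1.35. Mttp, which loads lipid onto apolipoprotein B, was at 230.2, 169 and 159.5 CPM, so that neither of these export genes was called.

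Cidec turned on cluster 1. In the STZ-HFHC libraries it was at 113 and 139 CPM in cluster 1 and at 46.4 and 54.0 CPM in cluster 3, and its mean log2 ratio to ND without cluster 1 was 0.50. Acly had the opposite pattern, at 54.3 and 57.6 CPM in cluster 1 and at 167 and 194 CPM in cluster 3. These were the 2 calls among 32 genes of the list tested between the clusters, where 1.43% of 11711 genes were at least 2-fold higher in cluster 1 and 0.828% in cluster 3. Plin2 leaned the same way as Cidec, at 204 and 196 CPM in cluster 1 and 108 and 85.5 CPM in cluster 3, and passed 2-fold in 1 mouse only. The clusters also differed in lobule position. Periportal markers summed to 2761 and 2892 CPM in cluster 1 and to 5994 and 6324 CPM in cluster 3. Pericentral markers summed to 1027 and 1224 CPM in cluster 1 and to 370 and 416 CPM in cluster 3. These gaps and the results by lobule position below are therefore not separate observations. In the small cluster 22, led by interferon-induced genes, Plin2 reached 255 CPM in ND and 446 and 486 CPM in STZ-HFHC. The listed genes were kept out of the genes used for clustering.

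**Figure D3:**
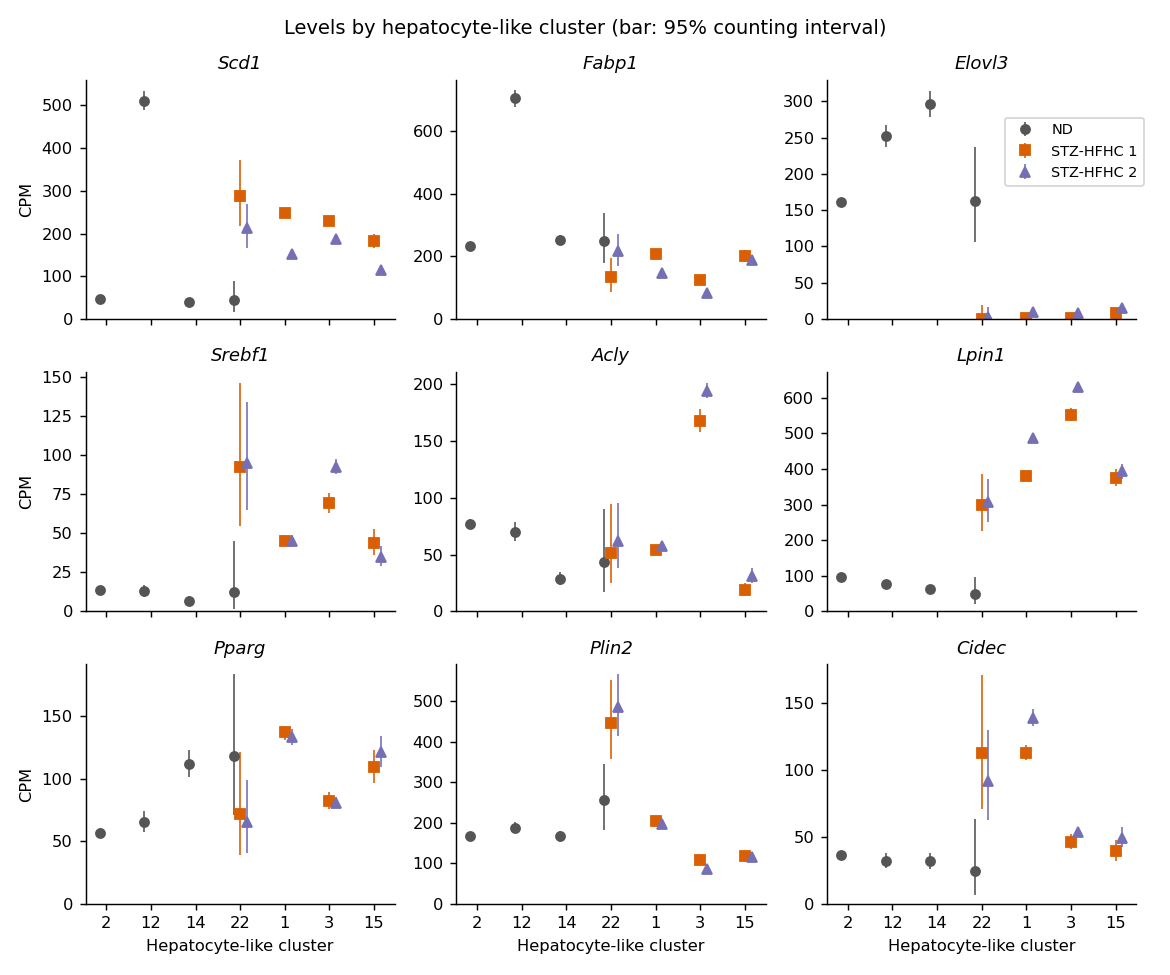
Levels of selected lipogenesis and lipid droplet genes in CPM in each hepatocyte-like cluster with at least 20 nuclei of a library, with 1 point per library and exact Poisson 95% intervals as bars. Scd1 stands at 511 CPM in ND cluster 12 against 46.0 CPM in ND cluster 2, and Cidec at 113 and 139 CPM in STZ-HFHC cluster 1 against 46.4 and 54.0 CPM in cluster 3.

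Position along the liver lobule was read from a score of pericentral minus periportal markers, by which the hepatocyte-like nuclei of each library were ranked and cut into 4 equal parts. The top part is called pericentral and the bottom part periportal, with 1353, 745 and 1186 nuclei in each. They are ranges of a score and not cell types. A gene was called when its log2 ratio between these parts was at least 0.5 in the same direction in all 3 libraries, and of 30 genes tested 2 were pericentral and 3 periportal, against 3.76% and 2.25% of 9699 genes. Plin4 was pericentral, at 120.0 against 17.2 CPM in ND and 24.7 against 15.5 CPM and 87.7 against 27.9 CPM in STZ-HFHC. Pparg was pericentral as well, at 107 against 19.9 CPM in ND, 142 against 84.5 CPM and 134 against 67.1 CPM. Its pericentral level was thus alike in the 3 libraries, within a range of 107 to 142 CPM, while its periportal level differed by more than 3-fold. Acly was the most periportal, at 123 CPM in the periportal and 26.6 CPM in the pericentral part of ND, and at 161 against 29.0 CPM and 224 against 37.9 CPM in STZ-HFHC. Srebf1 (log2 ratios of -1.04, -0.91 and -1.51) and Lpin1 (-1.33, -0.85 and -0.78) were periportal in each library.

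Plin2 and Cidec were pericentral by at least 0.5 log2 units in both STZ-HFHC libraries and leaned slightly the other way in ND. Plin2 was at 174 pericentral and 186 CPM periportal in ND, but at 197 against 107 CPM and 212 against 79.2 CPM in STZ-HFHC. Cidec was at 30.8 and 34.2 CPM in ND, and at 97.4 against 45.9 CPM and 119.8 against 38.9 CPM in STZ-HFHC. The difference between conditions was not tested. When each nucleus was thinned to 1000 UMIs, the mean log2 ratios of Pparg and Plin4 were 0.80 and 1.53, but neither was called.

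**Figure D4:**
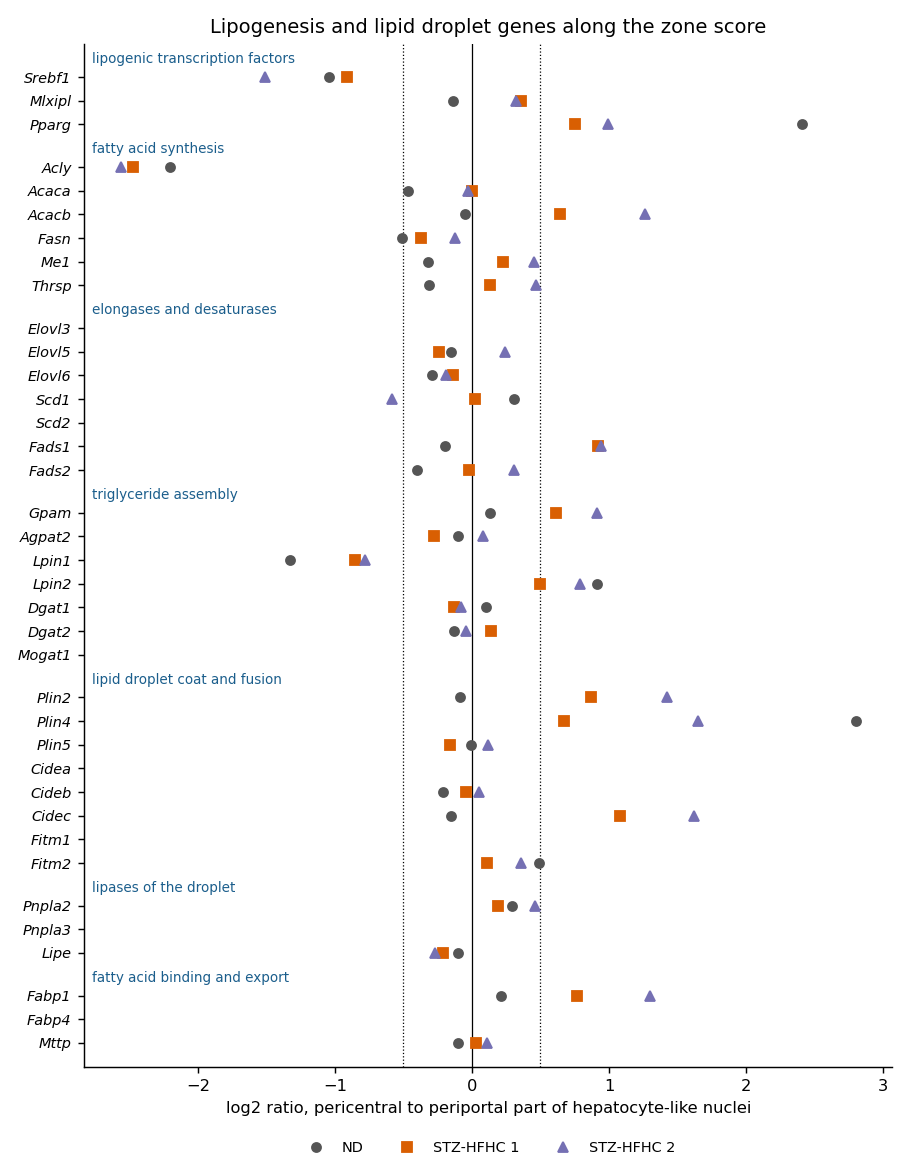
Log2 ratio of the pericentral to the periportal part of hepatocyte-like nuclei for each tested gene, with 1 point per library and lines at 0.5 and -0.5. Acly lies at -2.20, -2.47 and -2.56, Plin4 at 2.80, 0.67 and 1.65, and Cidec at -0.15 in ND and 1.08 and 1.62 in STZ-HFHC.

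Outside hepatocyte-like nuclei the hepatocyte RNA found there set a level for every gene. A class was read as holding more of a gene only by the following rule. The lower 95% counting limit of its level, set against the hepatocyte-like level, had to be over 2 times the median ratio of the hepatocyte markers. This had to hold in each library with at least 20 nuclei, and a class needed at least 2 such libraries. By that rule 4 genes stood out. Fabp4 did so in endothelial-like nuclei (values above), in stellate or fibroblast-like nuclei at 2.57, 13.9 and 10.3 CPM, and in macrophage-like nuclei at 30.2 and 17.9 CPM in STZ-HFHC. Scd2 did so in the same 3 classes, reaching 46.5 and 17.2 CPM in macrophage-like nuclei of STZ-HFHC, 12.8 and 5.14 CPM in endothelial-like and 12.9 and 11.8 CPM in stellate-like nuclei. In ND, endothelial- and stellate-like nuclei held 1.25 and 3.99 CPM of Scd2, and the 16 macrophage-like nuclei of ND were too few for a level. Pparg reached 277 and 207 CPM in macrophage-like nuclei of STZ-HFHC, against 119.9 and 105 CPM in hepatocyte-like nuclei. Pnpla3 stood out in stellate or fibroblast-like nuclei, at 2.00, 3.61 and 3.52 CPM from 14, 7 and 14 UMIs. Plin2 in macrophage-like nuclei, at 256 and 182 CPM, passed in 1 of 2 libraries. Lpin2, Dgat2 and Plin4 were the 3 genes highest in hepatocyte-like nuclei in every library.

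**Figure D5:**
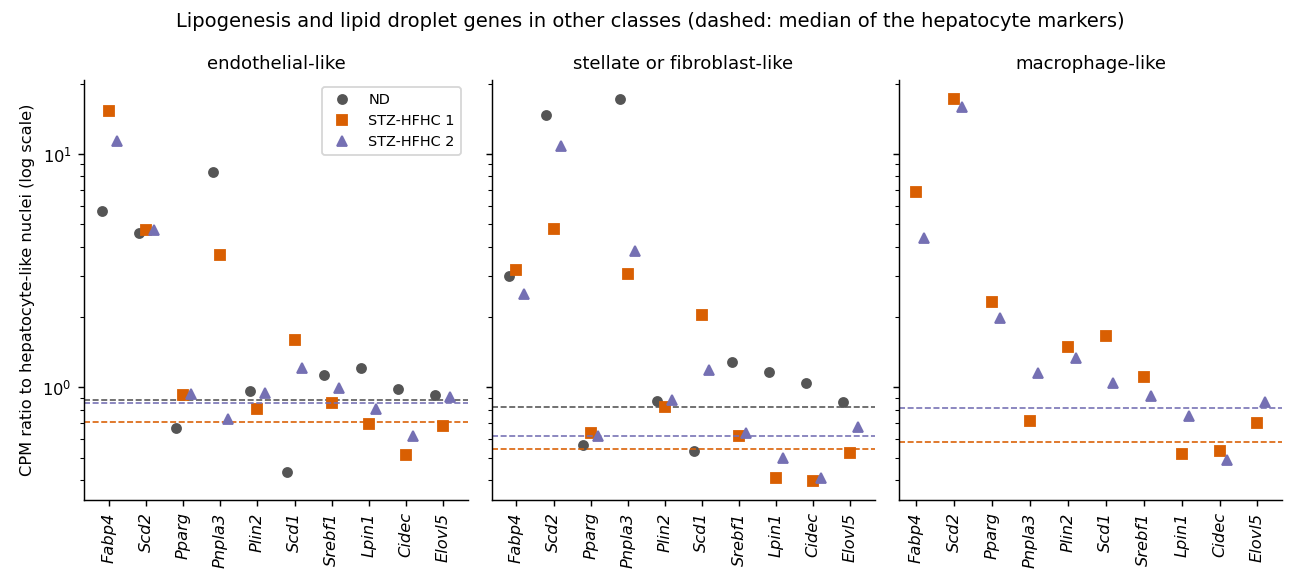
Ratio of the CPM of 10 lipogenesis and lipid droplet genes in endothelial-like, stellate or fibroblast-like and macrophage-like nuclei to that in hepatocyte-like nuclei of the same library, on a log axis, with 1 point per library and none for the 16 ND macrophage-like nuclei. Dashed lines mark the median ratio of the hepatocyte markers in each library, and Fabp4 in endothelial-like nuclei lies at 5.68, 15.2 and 11.3, above lines at 0.886, 0.712 and 0.853.

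The size rule was also applied within the other classes. The hepatocyte RNA found there differed between conditions in the same way, and its part was not tested. In endothelial-like nuclei 7 of 33 listed genes were higher (8.20% of all genes) and 4 lower (4.94%). The higher ones were Srebf1, Pparg, Thrsp, Scd1, Scd2, Lpin1 and Fabp4, and the lower ones Elovl3, Elovl5, Agpat2 and Cideb. In stellate or fibroblast-like nuclei 4 were higher (11.3%) and 7 lower (8.50%). In T or NK cell-like nuclei 5 of 25 were higher (11.0%) and 4 lower (4.27%), in B cell-like nuclei 2 of 20 higher (5.62%) and 4 lower (4.29%), and in cholangiocyte-like nuclei 1 of 16 higher (9.25%) and 1 lower (4.36%). Elovl5 was lower in all 5 of these classes and Elovl3 in 4 of them. No gene was called in opposite directions in hepatocyte-like nuclei and another class.

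The share of hepatocyte-like nuclei with a UMI, after thinning every nucleus to 1000 UMIs, followed the levels. Thinning left out 223, 25 and 34 nuclei that were shallower. Endothelial-like nuclei are set beside them. Hepatocyte markers stood there at a median of 0.886, 0.712 and 0.853 times their hepatocyte-like level. A share alike in both classes therefore cannot tell a gene expressed in hepatocytes from background. The median UMIs before thinning were 4030, 7901.5 and 6534 in hepatocyte-like and 5246, 1789 and 2041 in endothelial-like nuclei. Lpin1 was seen in 8.07% of ND and 32.5% and 38.5% of STZ-HFHC nuclei, and in 9.51%, 17.9% and 30.3% of endothelial-like nuclei. Elovl3 was seen in 17.1% of ND and in 0.304% and 1.06% of STZ-HFHC nuclei, and in 129 of 1072 ND and 0.242% and 1.11% of STZ-HFHC endothelial-like nuclei, so that the STZ-HFHC shares lay at that background and the lower share was seen there too. Cidec was seen in 3.51%, 7.51% and 8.11% of hepatocyte-like nuclei and in 3.08%, 2.90% and 3.06% of endothelial-like nuclei, so that the ND share lay near that background and both STZ-HFHC shares lay above it. Without thinning, the Lpin1 share was 28.1% in ND and 79.6% in STZ-HFHC 1.

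Of 66 other genes of the same pathways, 64 reached the minimum, and 7 were higher and 5 lower. Of all genes tested, 8.27% were higher and 5.59% lower, so these counts say little particular about the pathways. Among the lipogenic enzymes, Pgd and Tkt of the pentose phosphate pathway were higher, at 12.7 and 12.4 against 5.17 CPM and at 34.0 and 31.9 against 12.9 CPM. Aacs, which activates acetoacetate, was at 14.0 CPM in ND and 55.7 and 49.9 CPM in STZ-HFHC. Acsl1, the main acyl-CoA synthetase of liver, was at 3750.2 CPM in ND and at 985 and 770.0 CPM in STZ-HFHC. G0s2, an inhibitor of the lipase Pnpla2, was lower at 45.0 and 65.4 against 341 CPM, and the carboxylesterase Ces3a at 69.4 and 111 against 492 CPM. Ppargc1a, a coactivator of gluconeogenic and mitochondrial genes, was higher at 365 and 569 against 118 CPM. Further calls were Elovl7, Plin3 and Fabp7, which were higher, and the acyl-CoA binding protein Dbi, which was lower at 33.1 and 21.2 against 97.5 CPM. In ND, Fabp7 and Elovl7 were at 0.350 and 0.272 CPM. Of the 18 other regulators, Ppargc1a was the only one called.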

How the data were processed

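Nuclei of frozen liver were isolated, captured with the 10x Genomics 3' chemistry and sequenced, and the counts of UMIs per gene and nucleus were deposited by the authors, who used Cell Ranger 7.0.1 and mm10 per the labels. Whether intronic reads were counted was not given in the sources used here. As 3' counts are not scaled to gene length, levels were not compared between genes.

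Nuclei with 200 to 5000 genes and at most 5% mitochondrial UMIs were kept (28336 of 30989 barcodes). Counts were normalised, reduced to 30 principal components of 2000 variable genes without the listed genes and clustered by the Leiden method at resolution 1 (scanpy 1.11.5, leidenalg 0.10.2). Clusters were named from at least 3 markers at 2 or more times the median of the other clusters, which named clusters 2 and 12 hepatocyte-like. Clusters 1, 3, 14, 15 and 22 were added because their endothelial, macrophage and stellate marker sums were each at most 2 times that of the lowest cluster, a rule set after the clusters were seen. The names may therefore differ from those of the study. The doublet caller marked 1, 0 and 0 nuclei and had thus not worked, so the top 8% of scores were left out as an alternative.

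UMIs were summed per class and library, 0.5 was added to each count for log2 ratios, and counts gave exact Poisson 95% intervals, which cover counting error only. The replicates are separate mice. Total UMIs of the kept nuclei were 42715797, 44350401 and 55632923. All 37 genes were accounted for, and values in every library were given for called genes, transcription factors and genes not highest in hepatocyte-like nuclei. Other pathway genes past the size rule were named, up to 12. The values of 1 of them are not reported here. The genes, lists and rules were chosen with earlier results of these data known. The size rule and the alternative edgeR test (edgeR 4.0.16, DESeq2 1.42.0 for its size factors, R 4.3.3) were tested on simulated data. Promoter windows and gene positions came from RefSeq (GRCm38.p6) and GENCODE M21, where no listed gene overlapped another gene on its strand.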

Additional observations from a re-analysis of the deposited data

Results flagged for a closer look

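Of the 30 genes of the list tested along the zone score, 9 had a log2 ratio of the pericentral to the periportal part of one sign in the ND library and of the other sign in both STZ-HFHC libraries. Of all 9699 genes tested this held for 22.1%, so the count says nothing particular about the list. The difference between the conditions was not tested, since there was 1 ND library, and several of the ratios are close to 0. Cidec was at -0.15 in ND and at 1.08 and 1.62 in STZ-HFHC, and Plin2 at -0.09 in ND and at 0.87 and 1.42. Acacb was at -0.05 against 0.64 and 1.26, and Fads1 at -0.20 against 0.92 and 0.94. These 4 genes passed 0.5 in both STZ-HFHC mice. The gaps were smaller for Me1, at -0.32 in ND against 0.23 and 0.45, for Thrsp at -0.31 against 0.13 and 0.47, and for Mlxipl at -0.14 against 0.36 and 0.32. Mttp was at -0.10 against 0.03 and 0.11, and Dgat1, with the reverse signs, at 0.10 against -0.13 and -0.08. The groups of 1 and 2 libraries were too small to look for a library far from the others.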

How the results depend on the processing

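With a lower limit of 1.5-fold, 12 genes were higher and 9 lower, as were 16.0% and 12.4% of all genes. The edgeR quasi-likelihood test, with 1 residual degree of freedom and the lone ND library assumed to vary like the STZ-HFHC pair, called 3 genes, 2 higher and 1 lower, while 21 of the 36 passed an unadjusted 0.05, as 22.7% of all genes did. Cluster 15 against cluster 14 gave 6 higher genes. With nuclei thinned to 1000 UMIs, 2 genes were called along the zone score and 0 were pericentral. Without limits on genes and mitochondrial counts, 2 genes stood over the marker ratio in another class and 1 was highest in hepatocyte-like nuclei. At a resolution of 0.5, 0 genes stood over the marker ratio. The endothelial-like class then had 1 and 12 STZ-HFHC nuclei and the stellate-like class 3 and 3, under the 20 needed for a level. With a level in ND only, neither class could give a call. Macrophage-like nuclei numbered 57 in ND, so the rule there had to hold in ND too. The cause of the other differences was not tested. Leaving out each STZ-HFHC mouse in turn gave 15 to 16 called genes, 8 to 10 higher and 6 to 7 lower. Of all genes, 8.79% were then higher and 7.38% lower without the first mouse, and 11.3% and 12.2% without the second. Without the first mouse, Scd2 and Pnpla3 fell under the minimum of 50 UMIs. The mean log2 ratio kept its sign for each of the 15 called genes under the 15 alternatives with such a value. This says little, as these genes were picked for their distance from ND and every alternative used the same ND mouse. Pnpla3, Cidec and Fads1 came nearest to ND, at 0.31, 0.46 and -0.66 in comparisons by cluster number. The mean of 9 other genes (Fasn, Fads2, Acacb, Gpam, Acly, Dgat1, Plin2, Plin4 and Fitm1) changed sign under at least 1. Leaving out or adding clusters and the comparison by cluster number were added after the data were seen. No paired analysis was possible because ND had 1 library with no replicate number. The 0 to 7 UMIs of Cidea, Pnpla3 and Scd2 in ND limit their ratios most.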
